A study of Mus musculus with 6 samples.

Results

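The genes described here are 10 core genes of insulin and IGF1 signaling through Akt to the FOXO transcription factors: Igf1, Insr, Igf1r, Irs1, Irs2, Akt1, Akt2, Foxo1, Foxo3 and Foxo4. They were chosen by gene symbol and joined by gene identifier to the count table, in which all 10 of 10 were found among 45777 genes. All 10 passed the filter on low counts, which kept 16188 genes. The data are RNA-Seq libraries of a hindlimb muscle, the tibialis anterior (TA), from 3 mice treated with vehicle (DMSO and Tween 80) and 3 treated with BML-260, a small molecule that the study uses to inhibit the phosphatase DUSP22. All 6 mice were C57BL/6J males, 24 months old by the sample labels, and the study's text also gives somewhat older ages. BML-260 was injected into the abdominal cavity at 5 mg/kg every day for 1 month, and vehicle was given in the same way. The study asked how the compound acts on Akt and FOXO3a signaling in wasting muscle, and the comparison made here is BML-260 against vehicle for the RNA of these genes.

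IGF1 and insulin bind the receptors encoded by Igf1r and Insr, which phosphorylate the adaptors encoded by Irs1 and Irs2. The adaptors recruit PI3K, whose lipid product brings Akt to the membrane to be activated. Akt promotes protein synthesis and glucose uptake in muscle, and it phosphorylates FOXO proteins so that they leave the nucleus and no longer switch on genes of protein breakdown and autophagy. Most of this control acts on proteins, by phosphorylation, and RNA levels do not show it. FOXO proteins are in turn known to act on the transcription of genes of the same pathway, such as Insr and Irs2.

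The vehicle libraries held 39793301 to 52165766 counts and the BML-260 libraries 39522890 to 56998875. The 8 muscle fiber markers checked (such as Acta1 and Ckm) were all measured, and summed to between 6.86e+06 and 1.06e+07 normalized counts per library. Normalized counts are counts divided by a size factor that brings the libraries to a common depth. One vehicle library stood apart: vehicle replicate 3 had the highest or the lowest value of the 6 libraries for 10275 of the 16188 tested genes (63.5%). Fold changes of the 10 genes are therefore also given without it, as are those of the other genes named for their difference. Dusp22 itself had 1779, 1503 and 916 normalized counts in vehicle replicates 1, 2 and 3 and 1775, 1751 and 1396 in the BML-260 libraries, and the groups overlapped. Its log2 fold change, BML-260 over vehicle, was 0.23 (SE 0.24), with a Benjamini-Hochberg adjusted p of 0.823 in the quasi-likelihood test of edgeR, and -0.01 without vehicle replicate 3.

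None of the 10 genes had an adjusted p under 0.05 in edgeR's test, nor did any of the 16188 genes tested. DESeq2's Wald test called 95 of the 16188 genes and none of the 10. At an unadjusted p under 0.05, edgeR called 2 of the 10 genes, Foxo1 and Akt1, both lower with BML-260. Over all tested genes the same threshold called 966 (5.97%), of which 801 (4.95%) were lower and 165 (1.02%) higher. Each library mattered to the count of the 10: it was 4 without vehicle replicate 1 or 2, and 1 without any one of the BML-260 replicates. The count over all tested genes moved too, to 2275 and 1212 of 16719 without vehicle replicates 1 and 2. It was 702 of 16738, 504 of 16767 and 657 of 16765 without BML-260 replicates 1, 2 and 3. The log2 fold change was negative for 8 of the 10 genes, against 50.5% of all tested genes, and positive for Irs1 and Foxo4. The median over the 10 was -0.27, against 0.00 over all tested genes. With vehicle replicate 3 left out, 6 of the 10 were negative and the median was -0.07. None of the 10 then passed the unadjusted threshold, which called 725 of 16502 genes (4.39%, with 3.12% lower and 1.27% higher). DESeq2 called 3 of the 10 at an unadjusted p under 0.05 (Foxo1, Akt1 and Igf1), all lower, against 6.46% of all tested genes (5.21% lower and 1.25% higher).

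**Figure D1:**
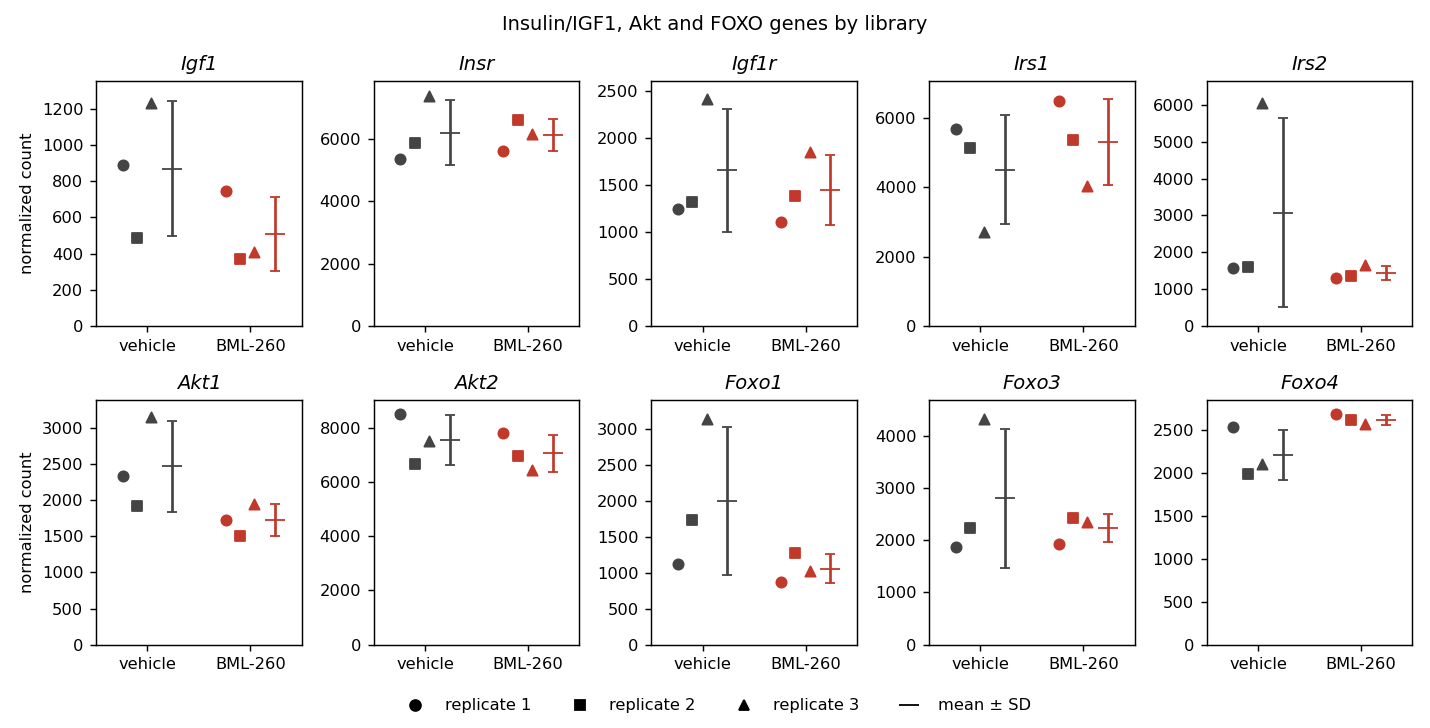
Normalized counts of the 10 genes (vertical axis, from 0) in the 3 vehicle and 3 BML-260 libraries, with a marker shape for each replicate and a bar for the mean ± SD. Vehicle replicate 3 (dark triangle) is the highest library for 7 genes and the lowest for Irs1, and the groups do not overlap for Foxo4.

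Foxo1 (gene ID 56458, chr3:52268337-52350109 of GRCm38.p6, plus strand) encodes a FOXO factor that drives atrophy genes and fuel switching in muscle. It had 1124, 1733 and 3129 normalized counts in vehicle replicates 1, 2 and 3 and 867, 1274 and 1023 in BML-260 replicates 1, 2 and 3. Vehicle replicate 3 was the highest of the 6 libraries, and vehicle replicate 1 lay below BML-260 replicate 2, so the groups overlapped. The vehicle mean was 1995 ± 1028 (SD, n = 3) and the BML-260 mean 1055 ± 205 (SD, n = 3). BML-260 over vehicle was -0.92 on the log2 scale (SE 0.34, 95% interval -1.70 to -0.15), which is 1.90-fold lower, with an unadjusted p of 0.0251 and an adjusted p of 0.788 by edgeR. The difference was smaller without vehicle replicate 3, at -0.44 (unadjusted p = 0.0511 by edgeR). The unadjusted p was also above 0.05 without BML-260 replicate 1 (0.0855) and without BML-260 replicate 3 (0.0731).

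Foxo3 (gene ID 56484, chr10:42181845-42276695, minus strand) encodes FOXO3a, the factor that the study is about. Its 3 vehicle libraries had 1862, 2230.0 and 4332 normalized counts, and its 3 BML-260 libraries 1932, 2419 and 2346. All 3 BML-260 values lay between those of vehicle replicates 1 and 3. On the log2 scale the difference was -0.33 (SE 0.30, 95% interval -1.01 to 0.34, adjusted p = 0.802 by edgeR). It turned positive without vehicle replicate 3, at 0.12. A long noncoding RNA gene on the same strand, Gm38485, shares 27374 bases with the Foxo3 locus and held 745 to 1944 counts per library, so reads could have been split between them. Its log2 fold change was -0.24, and 0.00 without vehicle replicate 3.

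Foxo4 (gene ID 54601, chrX:101254261-101260873, plus strand) encodes another FOXO factor of muscle. It had 2538, 1987 and 2114 normalized counts with vehicle and 2687, 2622 and 2572 with BML-260. Each BML-260 library was above every vehicle library, the only one of the 10 genes whose groups did not overlap on this scale. Over all tested genes, 876 (5.41%) were separated in the same direction and 1092 (6.75%) in the opposite one. A log2 fold change of 0.24 was fitted (SE 0.14, 95% interval -0.08 to 0.57, adjusted p = 0.788 by edgeR) and 0.21 without vehicle replicate 3. On the TPM scale the groups overlapped: vehicle replicate 3 had the highest value, 33.2 TPM, and vehicle replicate 1, at 28.6 TPM, was above BML-260 replicate 1, at 27.6 TPM. TPM is the authors' measure scaled for transcript length and library total.

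The direction thus differed within the FOXO genes: Foxo1 was lower, Foxo4 was higher, and the sign of Foxo3 depended on 1 library. None of these differences passed the adjusted test.

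Igf1 (gene ID 16000, chr10:87858265-87937047, plus strand) encodes the growth factor ligand, made in liver and, within muscle, by fibers, macrophages and other cells. It had 890.5, 487 and 1231 normalized counts in vehicle replicates 1, 2 and 3 and 743, 370.0 and 410.0 in the BML-260 libraries. The lowest vehicle library lay below the highest BML-260 library. The means were 869 ± 373 and 508 ± 205 (SD, n = 3 each). With BML-260, Igf1 was lower by a log2 fold change of -0.78 (SE 0.37, 95% interval -1.62 to 0.06, unadjusted p = 0.0651 and adjusted p = 0.788 by edgeR), and -0.45 without vehicle replicate 3. Leaving out BML-260 replicate 1 or vehicle replicate 2 gave -1.16 and -1.06, with an unadjusted p of 0.0151 and 0.0117 by edgeR. The unadjusted p was above 0.05 without vehicle replicate 1 (0.118) or vehicle replicate 3 (0.174). It was also above 0.05 without BML-260 replicate 2 (0.200) or BML-260 replicate 3 (0.187). In bulk muscle, fewer cells of a type and less RNA per cell cannot be told apart.

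The receptor genes overlapped between the groups. Insr (gene ID 16337, chr8:3150922-3279649, minus strand), which encodes the insulin receptor, had 5367, 5870.1 and 7370.2 normalized counts with vehicle and 5598, 6618 and 6149 with BML-260. The fitted log2 fold change was -0.02 (SE 0.17, 95% interval -0.40 to 0.36). Igf1r (gene ID 16001, chr7:67952257-68233668, plus strand), the IGF1 receptor gene, had 1241, 1324 and 2412 with vehicle and 1109, 1381 and 1849 with BML-260, and replicate 3 was the highest in each group. For Igf1r the log2 fold change was -0.20 (SE 0.29, 95% interval -0.86 to 0.45). Both turned positive without vehicle replicate 3, at 0.12 for Insr and 0.17 for Igf1r.

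The adaptor genes showed opposite patterns in vehicle replicate 3. Irs2 (gene ID 384783, chr8:10984681-11008929, minus strand) had 1580.2, 1603 and 6055 normalized counts in vehicle replicates 1, 2 and 3, against 1314, 1352 and 1659.6 with BML-260. Vehicle replicate 3 was 4.03 times the mean of the other 5 libraries, and those 5 spanned a narrow range. The log2 fold change was -1.10 (SE 0.49, 95% interval -2.21 to 0.02, unadjusted p = 0.0531 and adjusted p = 0.788 by edgeR). It was -0.15 without vehicle replicate 3 (unadjusted p = 0.328 by edgeR), and -1.41 without vehicle replicate 1 or 2 (unadjusted p = 0.0177 and 0.0207). Without BML-260 replicates 1, 2 and 3 the unadjusted p by edgeR was 0.125, 0.133 and 0.0894. Irs1 (gene ID 16367, chr1:82233105-82291439, minus strand) had its lowest value in vehicle replicate 3 instead, with 5685, 5142 and 2721 in the vehicle libraries and 6506, 5375 and 4035 in the BML-260 libraries. Irs1 had a log2 fold change of 0.23 (SE 0.29, 95% interval -0.44 to 0.89), and -0.03 without vehicle replicate 3.

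Akt1 (gene ID 11651, chr12:112653821-112674884, minus strand) encodes the Akt kinase that is expressed in most tissues. It had 2337, 1921 and 3157 normalized counts with vehicle and 1726, 1508 and 1949 with BML-260. The groups overlapped only by BML-260 replicate 3, which lay just above vehicle replicate 2. Akt1 had a log2 fold change of -0.52 (SE 0.20, 95% interval -0.98 to -0.06), which is 1.43-fold lower, with an unadjusted p of 0.0317 and an adjusted p of 0.788 by edgeR. It was -0.31 without vehicle replicate 3 (unadjusted p = 0.0736), and the unadjusted p was also above 0.05 without BML-260 replicate 1 (0.0788) or BML-260 replicate 2 (0.121). Akt2 (gene ID 11652, chr7:27591552-27640826, plus strand), the kinase gene linked most closely to insulin-stimulated glucose uptake, had 8515, 6662 and 7534 with vehicle and 7799.6, 6969 and 6441 with BML-260. For Akt2 the log2 fold change was -0.10 (SE 0.16, 95% interval -0.47 to 0.26), and -0.11 without vehicle replicate 3.

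**Figure D2:**
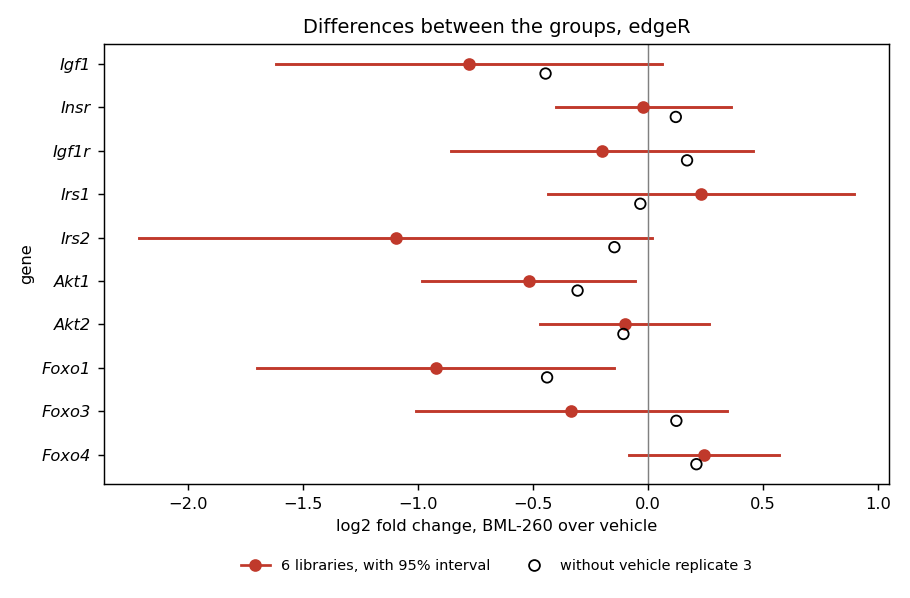
Log2 fold change (BML-260 over vehicle, horizontal axis) of each of the 10 genes in edgeR, with its 95% interval from 6 libraries (red), and the value without vehicle replicate 3 (open circles). The intervals of Foxo1 and Akt1 lie below 0, and leaving out the library moves Insr, Igf1r, Irs1 and Foxo3 across 0.

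Expression of the 10 genes was less even among the vehicle libraries than among the BML-260 libraries. The SD of log2 normalized counts was larger in the vehicle group for 10 of 10 genes, which was so for 70.3% of all tested genes. Its median over the 10 genes was 0.55 in the vehicle group and 0.18 in the BML-260 group, against 0.32 and 0.19 over all tested genes. Vehicle replicate 3 was the highest library for 7 of the 10 genes (31.8% of all tested genes) and the lowest for 1. Relative to the mean of the other 5 libraries, it was 2.60 times as high for Foxo1, 2.12 for Igf1, 2.01 for Foxo3, 1.75 for Igf1r and 1.67 for Akt1. For Insr the ratio was 1.24, for Akt2 1.04, for Foxo4 0.85 and for Irs1 0.51.

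The same library was the highest in the summed normalized counts of several marker lists of other cells. The 10 macrophage markers summed to 6498, 6776 and 19087 in vehicle replicates 1, 2 and 3 and to between 3917 and 4878 in the BML-260 libraries. At an unadjusted p under 0.05 by edgeR, 9 of 10 were lower with BML-260, against 4.95% of all tested genes. The neutrophil markers summed to between 338 and 9450.2 with vehicle and between 86.8 and 147 with BML-260, and both of the 2 that could be tested were lower. The slow fiber markers summed to 1681, 1890 and 11714 in vehicle replicates 1, 2 and 3, with 1 of 6 lower with BML-260. Their BML-260 sums, 2085 to 4000.4, lay above those of vehicle replicates 1 and 2. The erythroid markers summed to 33835, 38965 and 109523 with vehicle and to between 27610 and 36960 with BML-260, with 3 of 5 lower. The Schwann cell markers summed to 1305, 1410 and 4458 with vehicle and to between 1772 and 1924 with BML-260, with 0 of 5 lower. The macrophage and neutrophil sums of all 3 vehicle libraries were above those of the BML-260 libraries. No marker in these lists was at 0 in every library, and no T or B lymphocyte marker passed the filter. The sums of fibroblast (25898 to 42607 and 24519 to 41275), endothelial (7578 to 8878 and 6973 to 8671), adipocyte (5677 to 7783 and 6259 to 7021) and satellite cell markers (1879.9 to 2473 and 1378 to 1889) overlapped between the groups. Of these markers, 1 of 7 for fibroblasts, 0 of 6, 0 of 4 tested and 1 of 5 for satellite cells were lower at the same threshold. The satellite cell sum was also highest in vehicle replicate 3, and the muscle fiber sum was lowest there. The part of the listed cells in the values of Foxo1, Akt1, Igf1 and Irs2 was not tested.

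Levels of different genes can be compared only per length, so the order of the 10 genes was taken from TPM. Akt2 was the most abundant, with a mean of 66.3 TPM over the 6 libraries (SD 12.9), followed by Akt1 (29.9), Foxo4 (28.4), Insr (24.7) and Irs1 (19.3). Foxo3 (14.3), Irs2 (13.7), Foxo1 (10.9), Igf1r (5.00) and Igf1 (3.77) were lower. Only 2 steps of this order held in every library: Akt2 was above Akt1 in 6 of 6 libraries, 2.21-fold in the means, and Foxo1 was above Igf1r in 6 of 6, 2.18-fold. The ranges of all neighbours in the order overlapped between libraries. Akt1 was above Foxo4 in 3 of 6 libraries, so these 2 were not ordered.

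**Figure D3:**
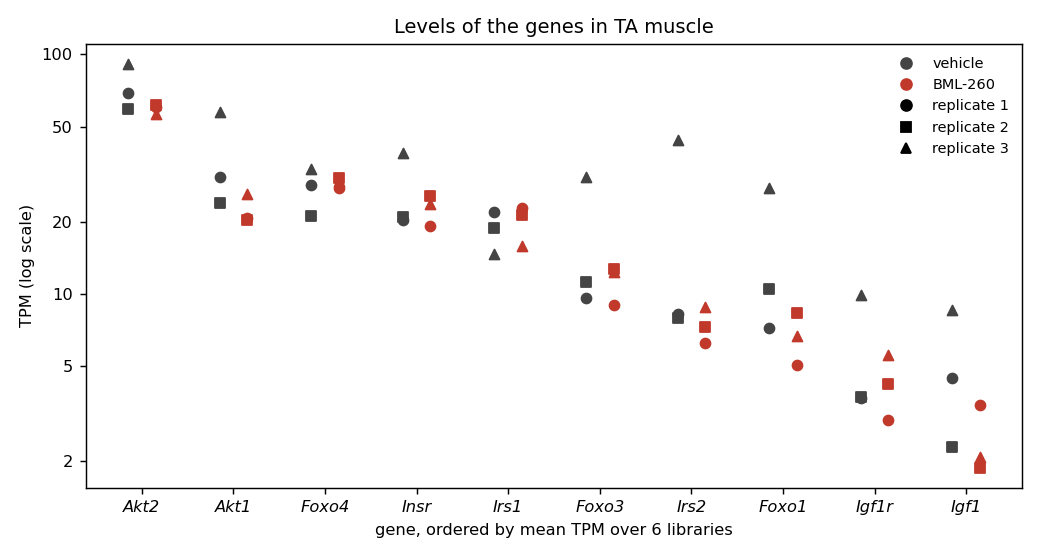
TPM of the 10 genes (log scale), ordered by their mean over the 6 libraries, with vehicle and BML-260 libraries in separate colors and a marker shape for each replicate. Akt2 is the highest and Igf1 the lowest by mean, and vehicle replicate 3 is the highest library for every gene but Irs1.

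Vehicle replicate 3 had the highest TPM for 9 of the 10 genes, which was also so for 63.3% of the tested genes that have a TPM. In TPM, Foxo1 was 7.16, 10.5 and 27.7 in the vehicle libraries and 5.03, 8.34 and 6.64 in the BML-260 libraries. Irs2 was 8.23, 7.91 and 43.8 with vehicle and 6.23, 7.24 and 8.81 with BML-260. Akt1 was 30.8, 24.0 and 57.7 with vehicle and 20.7, 20.4 and 26.2 with BML-260. The groups overlapped in TPM for all 10 genes, and for Akt2 and Foxo4 vehicle replicate 3 was the highest library in TPM but not in normalized counts.

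Paralogs divide a common role, so their shares of a summed TPM were compared within each library, where the scaling of the library cancels. Foxo1 made up 15.8%, 24.4% and 30.2% of Foxo1, Foxo3 and Foxo4 in the vehicle libraries and 12.1%, 16.2% and 13.7% in the BML-260 libraries. The means were 23.5% ± 7.27 and 14.01% ± 2.08 (SD, n = 3 each), a difference of -9.47 percentage points (exact permutation test, 2-sided, p = 0.2), and -6.09 without vehicle replicate 3. The Foxo3 share was 27.0% ± 6.22 and 23.9% ± 2.02 (exact permutation test, p = 0.5), a difference of -3.08 percentage points that was 0.21 without vehicle replicate 3. The rest was Foxo4, the highest of the 3 genes by mean TPM.

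Irs2 made up 27.3%, 29.6% and 75.0% of Irs1 and Irs2 in the vehicle libraries and 21.4%, 25.3% and 35.7% in the BML-260 libraries. Irs1 was thus the larger of the pair in 5 libraries and Irs2 in vehicle replicate 3. The difference in the Irs2 share was -16.5 percentage points (exact permutation test, 2-sided, p = 0.5), and -0.96 without that library. The Akt2 share of Akt1 and Akt2 was 67.2% ± 5.25 with vehicle and 72.6% ± 3.70 with BML-260, a difference of 5.47 percentage points (exact permutation test, p = 0.3), and 2.49 without vehicle replicate 3. The Insr share of Insr and Igf1r was 83.1% ± 3.01 and 84.5% ± 3.11 (exact permutation test, p = 0.5), a difference of 1.43 percentage points that was -0.30 without vehicle replicate 3. The smallest p this design allows is 0.1, and after Benjamini-Hochberg adjustment over the 5 shares every p from the exact permutation test was 0.5.

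**Figure D4:**
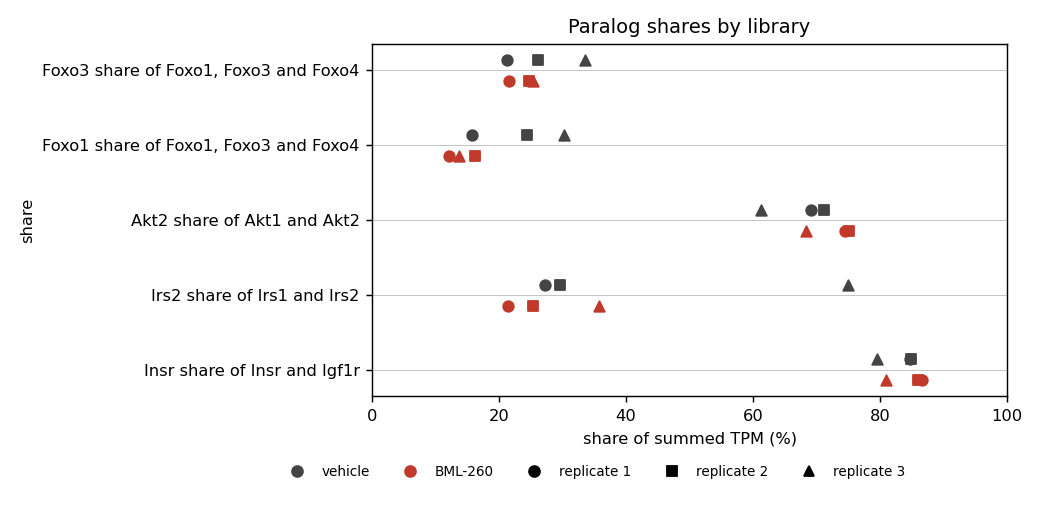
Share of a summed TPM (%, horizontal axis from 0 to 100) taken by 1 gene of each paralog group in each library, with vehicle above and BML-260 below each line. The Irs2 share of vehicle replicate 3, at 75.0%, stands far from the other 5 libraries, and the groups overlap in all 5 shares.

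To see whether the promoters of these genes hold the binding letters of the FOXO factors themselves, TGTTTAC was searched for on both strands (GTAAACA on the other) in RefSeq promoters of GRCm38.p6, from 250 bases before to 50 bases after each start site. The promoter table held 12 promoters for 8 of the 10 genes. Only 1 of the 12 had a match, in a promoter of Akt1, 161 bases before its start site, against 3.65% of all 32851 promoters and 2.73% of the 15241 promoters of tested genes. The window is shown with the match in capitals, 5′ to 3′ along the strand of the gene.
Akt1 promoter, chr12:112675027-112675056, minus strand: atctaccctctTGTTTACactcctggtgaa
A match of letters is a description and not a binding site. No promoter of Irs2, Foxo1, Foxo3, Igf1, Igf1r, Irs1 or Akt2 in the table had these letters in this window.

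The other genes of the pathway were taken from a list of 95 genes with known roles, 90 of which were tested. At an unadjusted p under 0.05 edgeR called 7 of the 90 (7.78%), all lower with BML-260, and none had an adjusted p under 0.05. Of all tested genes 5.97% were called, 4.95% lower and 1.02% higher. The groups did not overlap for 8 lower and 6 higher of the 90, against 6.75% and 5.41% of all tested genes. The median log2 fold change of the list was -0.01. Without vehicle replicate 3, 5 of the 90 passed the unadjusted threshold, 3 lower and 2 higher, against 4.39% of all tested genes. The count in the list was 19 and 7 without vehicle replicates 1 and 2, and 4, 1 and 2 without BML-260 replicates 1, 2 and 3. Over all tested genes, these fits called 2275 and 1212 of 16719, then 702 of 16738, 504 of 16767 and 657 of 16765.

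Among ligands and IGF binding proteins, 3 of 7 tested genes were lower at that threshold, against 4.95% of all tested genes. Igfbp7, a secreted binding protein, had 1318, 1494 and 2222 normalized counts with vehicle and 1119, 1105 and 1154 with BML-260, and the groups did not overlap. BML-260 over vehicle was -0.58 on the log2 scale for Igfbp7 (SE 0.20, unadjusted p = 0.0186 by edgeR), and -0.32 without vehicle replicate 3. Igfbp4, which holds IGFs away from their receptor, had a log2 fold change of -0.95 (SE 0.38), and -0.36 without that library, where it no longer passed (unadjusted p = 0.0944 by edgeR). Igf2, the second IGF ligand, had 343, 880.0 and 463 with vehicle and 338, 302 and 365 with BML-260. Its log2 fold change was -0.75 (SE 0.32), and -0.86 without vehicle replicate 3. For Igf2 the highest library was vehicle replicate 2 instead, and the weakest difference over the left-out libraries was -0.27. Igfbp3, the main carrier of IGF in blood, had -1.31 (SE 0.61), and -0.16 without vehicle replicate 3. For Igfbp5, another binding protein gene of muscle, the value was 0.13 (SE 0.46), and -0.28 without vehicle replicate 3.

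At the level of the receptors, 2 of 8 tested genes passed, both lower, against 4.95% of all tested genes. Both encode inhibitors of cytokine and growth factor signaling. Socs3 had 215, 152 and 1807 normalized counts with vehicle and 74.2, 87.8 and 167 with BML-260. Its log2 fold change of -2.74 (SE 0.90) was -0.76 without vehicle replicate 3. Socs2 had a log2 fold change of -0.51 (SE 0.22), and -0.28 without that library, where it no longer passed (unadjusted p = 0.136 by edgeR). Grb14, an adaptor that inhibits the insulin receptor, was higher with BML-260 without passing, at 0.92 (SE 0.46), with 846, 699 and 188 against 1229.7, 1211 and 836. Without vehicle replicate 3 it did pass, at a smaller value of 0.49 (unadjusted p = 0.0204 by edgeR). Its relative Grb10 had -0.21 (SE 0.26), and 0.09 without that library.

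Of 12 PI3K genes, 1 was lower at the threshold, against 4.95% of all tested genes. Pik3r1, the main regulatory subunit, had 3121, 3839 and 7207 normalized counts with vehicle and 3096, 2964 and 2721 with BML-260. Its groups did not overlap, and its log2 fold change was -0.69 (SE 0.29), or -0.25 without vehicle replicate 3 (unadjusted p = 0.0998 by edgeR). The catalytic subunit gene Pik3ca had -0.17 (SE 0.21), and 0.08 without that library. Of 9 phosphatase genes, 1 was lower at the threshold, to be read beside the same 4.95%. Inpp5d, a lipid phosphatase of blood cells, had a log2 fold change of -1.07 (SE 0.39), and its groups did not overlap. Without vehicle replicate 3 it did not pass (-0.45, unadjusted p = 0.0701 by edgeR).

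No gene passed among the 17 Akt kinases and regulators, the 10 Akt substrates, the 6 adaptors or the 21 genes of the FOXO family and its regulators. The log2 fold change was -0.20 for Pdpk1 (SE 0.18), which encodes the kinase that activates Akt, -0.07 for Mtor (SE 0.14) and -0.06 for Rictor (SE 0.13), a subunit of the other kinase complex that acts on Akt. Slc2a4, the insulin-responsive glucose transporter gene, had 0.15 (SE 0.16), Sgk1 0.29 (SE 0.20) and Foxo6 0.67 (SE 0.62). Without vehicle replicate 3 these values were -0.02 for Pdpk1, 0.01 for Mtor, 0.01 for Rictor, 0.08 for Slc2a4, 0.14 for Sgk1 and 0.17 for Foxo6.

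**Figure D5:**
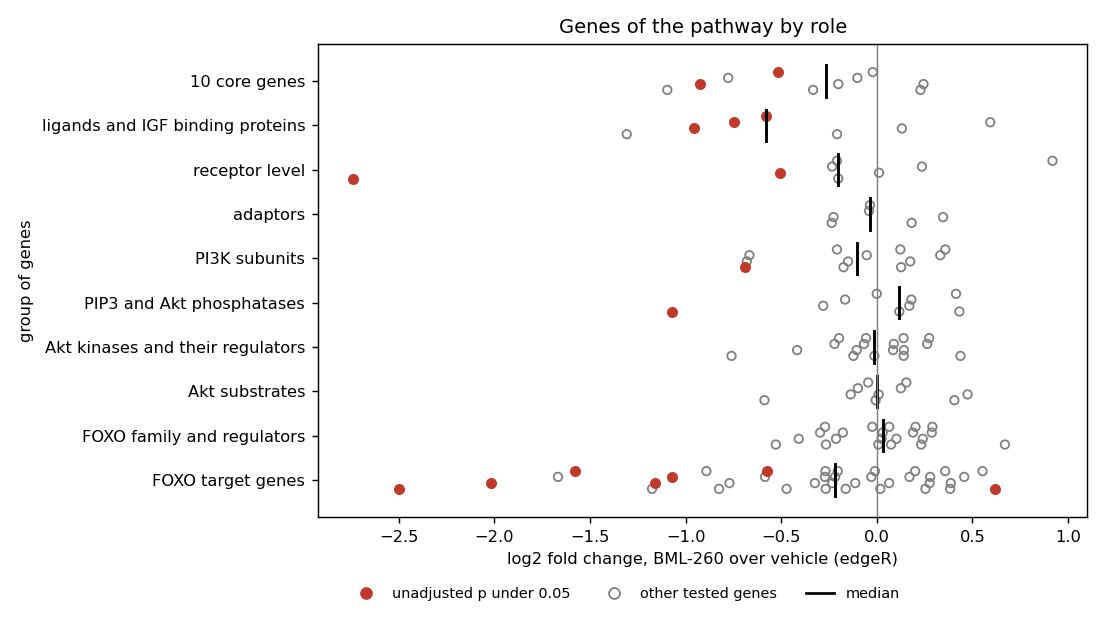
Log2 fold change (BML-260 over vehicle, edgeR) of the 10 core genes, of the other tested genes of the pathway by role and of FOXO target genes, with a vertical bar for each median. Genes with an unadjusted p under 0.05 (red) lie to the left of 0 in each group that has any, except Mstn among the targets. The ligands and binding proteins have the lowest median, -0.58.

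Among 37 tested genes known as FOXO targets, 24 were lower (64.9%, against 50.5% of all tested genes) and 13 higher. Their log2 fold changes had a median of -0.22. The groups did not overlap for 5 lower and 3 higher of the 37, against 6.75% and 5.41% of all tested genes. Here edgeR called 7 at an unadjusted p under 0.05 (18.9%, against 5.97% of all tested genes). The study picked several of them on these samples, so the count is not independent evidence of a direction. The 6 lower genes were Cdkn1a (-2.50), Gadd45a (-2.02), Eif4ebp1 (-1.58), Trim63 (-1.16), Fbxo32 (-1.07) and Fbxo30 (-0.57), which act in cell cycle arrest, stress, translation and protein breakdown. Leaving out vehicle replicate 3 gave -2.10 for Cdkn1a, -1.79 for Gadd45a and -0.52 for Fbxo30, which still passed the unadjusted threshold. It gave -0.15 for Eif4ebp1, -0.25 for Trim63 and -0.32 for Fbxo32, which did not pass (unadjusted p = 0.353, 0.126 and 0.0621 by edgeR). Fbxo32 had 25467, 19693 and 69172 normalized counts with vehicle and 18170, 18757 and 17459 with BML-260, so its groups did not overlap. The 1 higher gene was Mstn, which encodes the growth inhibitor myostatin. By qPCR in its aged mice, the study reports lower myostatin expression with BML-260, the opposite direction. By the same method it reports lower Trim63 (MuRF-1) and Fbxo32 (atrogin-1), the same direction as here. The study's Fbxo32 difference did not reach its significance threshold. Mstn had 2382, 1405 and 1981 normalized counts with vehicle and 2523, 3428 and 2942 with BML-260, and its groups did not overlap (log2 fold change 0.62, SE 0.21, unadjusted p = 0.0186 and adjusted p = 0.779 by edgeR, and 0.64 without vehicle replicate 3). Without vehicle replicate 3, 22 of the targets were lower and 15 higher, with a median of -0.05. Of these targets, 4 then passed the unadjusted threshold, 3 lower and 1 higher, against 4.39% of all tested genes (3.12% lower and 1.27% higher). The count of targets was 17 and 12 without vehicle replicates 1 and 2, and 4, 3 and 4 without BML-260 replicates 1, 2 and 3. In the same order, these fits called 2275 and 1212 of 16719 tested genes, then 702 of 16738, 504 of 16767 and 657 of 16765.

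The genes whose pattern over the 6 libraries was most like a core gene were found by the root mean square difference of centred log2 normalized counts, over all tested genes. The nearest to Foxo1 were Vegfd (0.035), Gm21188 (0.078) and Cth (0.106). For Foxo3 they were Idh2 (0.038), Bmpr1b (0.042) and Evi5 (0.049), and for Igf1 they were Fbxo5 (0.149), Tcf19 (0.154) and Gm16332 (0.162). With 6 libraries and 16188 genes, a small distance is a description of these libraries and nothing more.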

How the data were processed

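Total RNA of the TA muscle was sequenced from stranded libraries, 1 per mouse. Per the labels and the study's methods, the authors trimmed reads with Trimmomatic 0.38, mapped them to mm10 with HISAT2 2.1.0 and Bowtie2 2.3.4.1, and assembled transcripts with StringTie 2.1.3b. They deposited raw counts per gene for 6 libraries in 1 table and TPM values per library, for 16800 genes, scaled for transcript length and library total. The handling of strand and of reads matching several genes is not given in the sources used here, and could split reads between overlapping genes. Of the 45777 gene IDs, 45679 were found in RefSeq's GRCm38.p6 gene table. The strands of Insr and Foxo4 came from GENCODE M21 annotation.

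Genes were kept by filterByExpr (16188 genes, 99.9% of counts), scaled by TMM and tested with edgeR 4.0.16's quasi-likelihood F-test in R 4.3.3, with Benjamini-Hochberg adjustment over all kept genes. The SE is the log2 fold change over the square root of F. Normalized counts use the size factors of DESeq2 1.42.0. Alternatives were the Wald test of DESeq2, normalization by RLE or by the upper quartile, a filter of 10 counts in each library, testing all genes with a count (a total of 1 or more), limma 3.58.1 voom with sample weights, limma trend on log2(TPM + 1) or log2(TPM + 0.1), a replicate block, and leaving out each library. Shares were compared by exact permutation tests. The edgeR, DESeq2 and voom tests were also run on simulated counts, in which no library stood apart from the others. Figures used matplotlib 3.10.9 in Python 3.11.15.

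The 10 genes and the gene lists were chosen with earlier results of these data known. Beside the 10 genes and Dusp22, the genes named were pathway genes picked for their role (some of these are not reported here), pathway and FOXO target genes at an unadjusted p under 0.05, and the 3 genes nearest in pattern to Foxo1, Foxo3 and Igf1. Gm38485 was named after its values were seen. Replicates are separate mice by the study's methods.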

Additional observations from a re-analysis of the deposited data

How the results depend on the processing

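The median of the 10 genes stayed negative and none of the 10 passed an adjusted p under 0.05 in all 15 alternatives. The size of that median varied: it was -0.27 in the main test, -0.03 with voom and -0.07 without vehicle replicate 3. The count of the 10 at an unadjusted p under 0.05, 2 in the main test, was 0 with log2(TPM + 0.1) or log2(TPM + 1), 1 with voom, 4 without the filter, and 0 to 4 over the left-out libraries. Over all genes, the count at an adjusted p under 0.05 was 95 with DESeq2, 1 each with voom, without the filter and with at least 10 counts per library, and 0 to 9 over the left-out libraries (9 without vehicle replicate 1, 6 without vehicle replicate 3). The count at an unadjusted p was 1046 with DESeq2, 987 with voom, 683 with log2(TPM + 0.1) and 587 with log2(TPM + 1). It was 1433 of 25780 without the filter, and 504 (without BML-260 replicate 2) to 2275 (without vehicle replicate 1) over the left-out libraries. For the pathway list the unadjusted count was 3 and 1 with pseudocounts of 0.1 and 1, with medians of -0.16 and -0.13, and 1 to 19 over the left-out libraries, the highest without vehicle replicate 1. TPM moved the median of all genes too, to -0.14 and -0.10. For the FOXO targets the unadjusted count was 11 with DESeq2, 3 with each TPM scale, 4 with voom, 12 without the filter and 3 to 17 over the left-out libraries, and the adjusted count was 1 with DESeq2 and 0 to 1 over the left-out libraries. The sign turned with voom for Insr (0.058) and Igf1r (0.015). Over the left-out libraries the log2 fold change spanned -0.11 to 0.12 for Insr, -0.42 to 0.17 for Igf1r, -0.034 to 0.43 for Irs1 and -0.55 to 0.12 for Foxo3. The cause was not tested.

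The difference in the Foxo3 share, -3.08 percentage points, spanned -5.96 to 0.21 over the left-out libraries, and that in the Insr share, 1.43, spanned -0.30 to 3.22. Both turned sign without vehicle replicate 3. The difference in the Akt2 share, 5.47, was 2.49 without it. The cause was not tested.

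Replicate numbers are shared by the groups, but the labels give them no meaning. The correlation of deviations from the group means over genes was 0.16, 0.05 and 0.11 for same-numbered libraries, the highest for each library, which is a hint from the data and not the design. With the replicate as a block, 3 of the 10 genes passed the unadjusted threshold (Igf1 added), as did 1100 of all genes.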
